A study of Mus musculus with 12 samples.

Results

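The genes Ly6c2, Plac8, Chil3, Ifitm6, Hp and Apobec1, all expressed by recruited Ly6C-high monocytes, were followed across the 4 groups of an aortic RNA-seq data set. They were taken by symbol from the expression table, are 6 of its 22013 entries, and all 6 are among the 13922 genes that passed the filter on low counts. They had been picked on their measured levels in these same libraries. Their levels and fold changes are therefore a description, and no p-value is printed for them. Calls of these genes at a p-value threshold, where given below, are a description as well. By the labels the material was aortic endothelial cells from mice infused with angiotensin II, a peptide that raises blood pressure. The 4 groups, of 3 libraries each, were Glra2-/- (global knockout) mice given intraperitoneal glycine, Glra2-/- mice given intraperitoneal saline, wild-type mice given glycine and wild-type mice given saline. Glycine was labelled 800 mg/kg per day, except for knockout glycine 5, which was labelled 80 mg/kg per day. All 4 groups thus carried the angiotensin II infusion, the deletion was not restricted to a cell type, and age is not given in the sources used here. Glra2 encodes the alpha 2 subunit of the glycine receptor.

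Classical monocytes are made in the bone marrow, leave it through the chemokine receptor CCR2, and enter inflamed tissue, where they turn into macrophages or dendritic cells. In mice they carry high surface Ly6C, and angiotensin II infusion is known to draw them into the aortic wall. A cell's Ly6C is lost as it matures into a tissue macrophage, so genes of classical monocytes and resident macrophages are listed separately below. The lists do not fully separate the cell types, as Lyz2 of the monocyte list is also expressed by macrophages.

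Levels are given in CPM, which are estimated counts scaled to a common library total after TMM normalization. Library totals ran from 14.5 to 24.3 M estimated counts. Glra2 had 0 counts in all 12 libraries, where 3 counts would equal 0.118 to 0.279 CPM, so the genotype labels could not be checked against it. Mitochondrially encoded genes took 26.9 to 36.2% of the counts in knockout glycine, 34.4 to 50.4% in knockout saline, 30.6 to 38.5% in wild-type glycine and 50.0 to 64.7% in wild-type saline libraries. The labelled cell type was checked with 15 endothelial markers, whose summed level was 494 to 722 CPM in knockout glycine, 411 to 671 CPM in knockout saline, 541 to 695 CPM in wild-type glycine and 775 to 1174 CPM in wild-type saline libraries. Fibroblast markers summed to 10108 to 12411, 6855 to 8813, 17501 to 18657 and 16369 to 23430 CPM in the same order of groups, above the endothelial sum in every library. In such bulk libraries, fewer cells of a type and less RNA per cell cannot be told apart. Haemoglobin genes took 1.096 to 2.60% of the counts in knockout glycine and 2.98 to 6.41% in knockout saline libraries. In wild type they took 1.24 to 5.13% under glycine and 1.03 to 1.80% under saline. The highest share was in knockout saline 2. The part of blood left in the samples in the levels of the 6 genes was not tested.

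The starts of 3 of the 6 genes, and of Ly6c1, are shown because Ly6c2 and Plac8 had the most similar profiles, Ly6c1 is the neighbour that shares sequence with Ly6c2, and Chil3 had the widest range. The windows run from 250 bases before to 50 bases after the annotated start, on the minus strand of GRCm38.p6, from RefSeq, where 5 of the 6 genes had an entry and Hp had none. The windows lie at chr15:75111922-75112221 (Ly6c2), chr15:75048788-75049087 (Ly6c1), chr5:100572156-100572455 (Plac8) and chr3:106167515-106167814 (Chil3). Capitals mark GAGGAA on either strand, the core letters bound by PU.1, the master transcription factor of myeloid cells.
Ly6c2: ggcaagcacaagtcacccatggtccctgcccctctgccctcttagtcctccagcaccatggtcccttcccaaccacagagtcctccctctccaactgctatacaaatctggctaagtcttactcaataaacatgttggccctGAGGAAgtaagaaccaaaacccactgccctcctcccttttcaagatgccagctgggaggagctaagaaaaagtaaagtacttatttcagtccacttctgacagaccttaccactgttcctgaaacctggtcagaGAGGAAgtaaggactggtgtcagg
Ly6c1: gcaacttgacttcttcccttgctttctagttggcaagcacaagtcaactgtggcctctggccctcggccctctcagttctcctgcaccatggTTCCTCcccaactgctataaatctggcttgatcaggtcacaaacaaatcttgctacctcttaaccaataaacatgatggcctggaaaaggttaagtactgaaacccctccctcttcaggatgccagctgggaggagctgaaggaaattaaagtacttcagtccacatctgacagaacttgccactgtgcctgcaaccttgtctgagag
Plac8: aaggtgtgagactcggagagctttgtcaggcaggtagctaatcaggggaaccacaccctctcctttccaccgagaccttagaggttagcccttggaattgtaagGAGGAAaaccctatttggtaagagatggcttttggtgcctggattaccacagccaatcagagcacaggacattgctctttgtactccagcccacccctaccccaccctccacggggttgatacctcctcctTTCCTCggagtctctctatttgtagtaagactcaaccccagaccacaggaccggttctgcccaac
Chil3: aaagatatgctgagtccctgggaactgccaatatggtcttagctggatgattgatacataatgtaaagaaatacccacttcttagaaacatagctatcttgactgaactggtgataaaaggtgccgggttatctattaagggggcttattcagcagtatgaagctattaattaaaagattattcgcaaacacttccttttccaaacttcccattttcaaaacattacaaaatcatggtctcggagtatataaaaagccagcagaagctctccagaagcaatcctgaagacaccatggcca

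In Ly6c2 the letters occur 108 bases upstream and 26 bases downstream of the start, both on the gene's strand. In Plac8 they occur 146 bases upstream on the gene's strand and 15 bases upstream on the other strand, and in Ly6c1 158 bases upstream on the other strand. At the second annotated start of Ly6c1 they occur 127 bases upstream on the gene's strand and 13 bases downstream on the other strand. The printed Ly6c1 window ends within that match on the gene's strand, so the shown windows do not tell Ly6c1 from Ly6c2 by it. The window of the second Plac8 start holds no match. No match lies in the Chil3, Ifitm6 and Apobec1 windows, which says only that these letters are not in the windows. Of 32851 promoter windows of the same length, 28.28% hold the letters. The letters TTGCNNAA, a form of the C/EBP site held by 10.8% of the windows, had no match at the first annotated start of these 5 genes and of Ly6c1, with both strands searched. The Ly6c2 and Ly6c1 windows are identical at 208 of 266 aligned bases, or 78.2%.

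Among the surface proteins, Ly6c2 encodes a GPI-anchored protein recognised by Ly6C antibodies on monocytes. Ly6c2 (ENSMUSG00000022584) had 59.9, 68.7 and 77.5 CPM in knockout glycine, 12.8, 27.2 and 19.1 CPM in knockout saline, 10.5, 10.4 and 5.70 CPM in wild-type glycine, and 4.57, 1.11 and 2.83 CPM in wild-type saline libraries. The 4 groups did not overlap, and the order ran from knockout glycine at the top through knockout saline and wild-type glycine to wild-type saline. The lowest value, in wild-type saline 2, rested on 11.6 estimated counts. On the log2 scale the fitted difference of glycine against saline was 1.80 ± 0.40 (SE) in knockout and 1.61 ± 0.42 in wild-type libraries. Knockout against wild type, it was 2.77 ± 0.43 under saline and 2.96 ± 0.42 under glycine. The glycine differences of knockout and wild-type libraries were 0.19 ± 0.58 apart, less than the error.

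Ly6c1, the adjacent gene that is expressed by endothelium in the mouse, did not share this order. Ly6c1 averaged 180.2 ± 40.7 CPM in knockout glycine, 118 ± 36.2 CPM in knockout saline, 143 ± 3.25 CPM in wild-type glycine and 152 ± 17.8 CPM in wild-type saline libraries (SD, n = 3 each). Its groups overlapped in every comparison, and its fitted differences lay between -0.37 ± 0.21 and 0.61 ± 0.21. Of the 100-base windows of the Ly6c2 transcript, 15.8% also occur in Ly6c1, so reads from those stretches had to be apportioned by the authors' quantification. Of the 50-base windows, 33.0% occur in other genes, mostly in Ly6c1.

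Ifitm6, a myeloid member of a family of membrane proteins of which several block virus entry, was the lowest of the 6 genes in knockout glycine. Ifitm6 had 19.5, 25.7 and 28.0 CPM in knockout glycine, 17.3, 46.1 and 13.1 CPM in knockout saline, 13.02, 13.05 and 11.1 CPM in wild-type glycine, and 5.71, 7.15 and 4.18 CPM in wild-type saline libraries. Knockout saline 2 stood far above its group, and the 2 knockout groups overlapped. The lowest knockout saline value and the highest wild-type glycine value were almost equal. Its log2 difference of knockout against wild type under saline was 2.17 ± 0.43, and 1.42 without knockout saline 2. Glycine against saline gave -0.07 ± 0.41 in knockout libraries, or 0.68 without knockout saline 2, and 1.13 ± 0.42 in wild-type libraries.

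Among the intracellular proteins, Plac8 encodes a cysteine-rich lysosomal protein of leukocytes. Plac8 had 159, 199 and 213 CPM in knockout glycine, 51.6, 54.5 and 63.7 CPM in knockout saline, 45.6, 34.1 and 30.3 CPM in wild-type glycine, and 12.1, 11.1 and 17.2 CPM in wild-type saline libraries. The groups stood in the same order as for Ly6c2 and again without overlap. The log2 difference of glycine against saline was 1.75 ± 0.21 in knockout and 1.44 ± 0.22 in wild-type libraries. Knockout against wild type it was 2.06 ± 0.22 under saline and 2.38 ± 0.22 under glycine.

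Apobec1 encodes the cytidine deaminase that edits apolipoprotein B mRNA in the intestine and is also active in macrophages. Apobec1 had 291, 296 and 257 CPM in knockout glycine, 351, 351 and 364 CPM in knockout saline, 100.1, 86.8 and 85.8 CPM in wild-type glycine, and 51.3, 68.8 and 46.9 CPM in wild-type saline libraries. The 4 groups were again apart, but the top group was knockout saline. The log2 difference of glycine against saline was -0.34 ± 0.16 in knockout and 0.71 ± 0.16 in wild-type libraries, a gap of -1.05 ± 0.22 between the genotypes. Knockout against wild type it was 2.68 ± 0.17 under saline and 1.63 ± 0.16 under glycine.

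Among the secreted proteins, Chil3 encodes Ym1, a chitinase-like lectin without chitinase activity. Chil3 had 110.2, 125 and 96.2 CPM in knockout glycine, 156, 442 and 268 CPM in knockout saline, 25.2, 30.0 and 24.2 CPM in wild-type glycine, and 4.50, 2.51 and 7.51 CPM in wild-type saline libraries. No group overlapped another, and the knockout saline libraries were both the highest and the most scattered. The difference of knockout against wild type under saline, 5.87 ± 0.42 on the log2 scale or 58.6-fold, was the largest fitted difference among the 6 genes. Under glycine it was 2.06 ± 0.35, or 4.18-fold. Glycine against saline gave -1.38 ± 0.34 in knockout libraries, or -0.94 without knockout saline 2, and 2.43 ± 0.37 in wild-type libraries. These glycine differences have opposite signs, with a gap of -3.81 ± 0.50. Of the 100-base windows of its transcript, 5.42% occur in other genes, among them Chil4, which had 0 counts in all libraries. Of the 50-base windows, 29.4% do.

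Hp encodes haptoglobin, the plasma protein that captures free haemoglobin, which the liver makes in bulk and myeloid cells also express. Hp had 108, 115 and 131 CPM in knockout glycine, 80.6, 129.8 and 93.9 CPM in knockout saline, 85.0, 95.5 and 78.3 CPM in wild-type glycine, and 68.7, 54.8 and 14.0 CPM in wild-type saline libraries. Only wild-type saline lay below all other groups, and knockout saline overlapped with knockout glycine and with wild-type glycine. The value in wild-type saline 3 lay well below the others of its group. The log2 difference of knockout against wild type was 1.15 ± 0.39 under saline, or 0.74 without wild-type saline 3, and 0.46 ± 0.38 under glycine. Glycine against saline gave 0.22 ± 0.38 in knockout and 0.91 ± 0.38 in wild-type libraries, or 0.52 without wild-type saline 3.

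**Figure D1:**
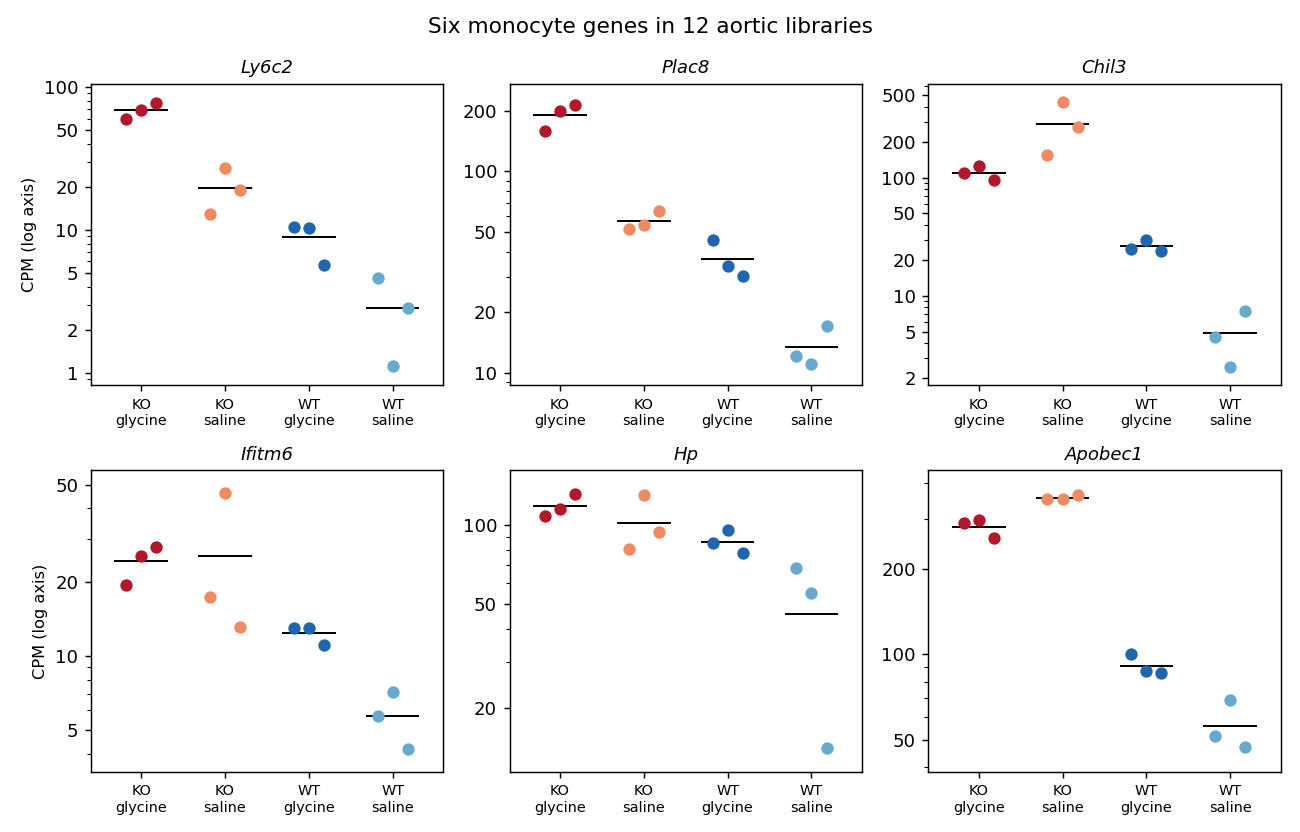
Level of each of the 6 genes in CPM on a log axis, 1 panel a gene. Points are the 3 libraries of a group and the bar is their mean; Ly6c2 and Plac8 are highest in knockout glycine, with means of 68.7 and 190.4 CPM, and Chil3 and Apobec1 in knockout saline, with means of 289 and 355 CPM.

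All 6 genes had fitted differences above 0 for knockout against wild type, and they split over glycine in knockout. Hp had the smallest genotype differences, 1.15 ± 0.39 under saline and 0.46 ± 0.38 under glycine. Because the genes were picked on these libraries, a shared direction may come from the choice, and the counts below are a description. In wild type, all 6 were higher under glycine than under saline with no overlap of libraries, where 8.53% of all tested genes were. In knockout, Ly6c2 and Plac8 were higher under glycine with no overlap (11.4% of all genes), Chil3 and Apobec1 lower with no overlap (9.57% of all genes), and Ifitm6 and Hp overlapped. Knockout libraries were above wild-type libraries without overlap for 6 of 6 genes under saline (15.3% of all genes) and under glycine (11.3%). Taking the 6 knockout libraries together, 5 of the 6 genes, all but Hp, were above every wild-type library, where 2.89% of all genes were. The median log2 difference over the 6 genes was 1.28 for glycine in wild type, 0.08 for glycine in knockout, 2.42 for knockout under saline and 1.85 for knockout under glycine, beside medians over all tested genes of 0, -0.01, -0.02 and -0.01. Without knockout glycine 5, the library labelled with the lower dose, the glycine difference in knockout was 1.80 for Ly6c2, 1.72 for Plac8, -0.11 for Ifitm6, 0.24 for Hp, -1.48 for Chil3 and -0.38 for Apobec1.

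By the edgeR quasi-likelihood test at an adjusted p below 0.05, Plac8, Chil3 and Apobec1 were called higher with glycine in wild type (3 of 6 genes, against 0.991% of all genes). Ly6c2 and Plac8 were called higher with glycine in knockout (2 of 6, against 0.927%). Knockout against wild type, 5 of 6 genes (all but Hp) were called higher under saline, against 6.03% of all genes, and 4 of 6 (all but Ifitm6 and Hp) under glycine, against 1.5%. For the glycine by genotype interaction, Chil3 and Apobec1 were called lower (2 of 6, against 0.84%), meaning that the glycine difference was lower in knockout. Because the genes were picked on these libraries, these counts are given beside their background and nothing is read from them. For glycine in wild type, an edgeR model of the wild-type groups alone called 0 of the 6 genes higher at an adjusted p below 0.05, against 0.187% of all genes. At an unadjusted p below 0.05 that model had 5 of the 6 higher, against 5.37% of all genes, and DESeq2 on all groups called 4 higher, against 2.71%.

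**Figure D2:**
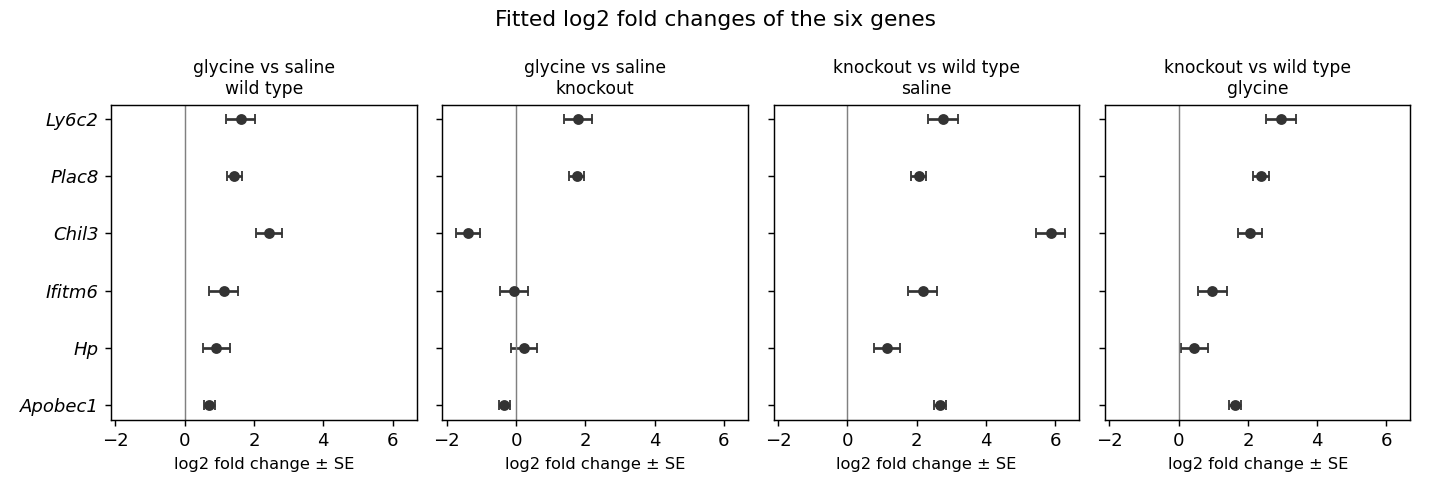
Fitted log2 fold change of each of the 6 genes (points) with its standard error (bars) in the 4 pairwise comparisons, 1 panel a comparison. Values for glycine in knockout lie on both sides of 0, between -1.38 for Chil3 and 1.80 for Ly6c2, while both knockout against wild type panels lie to the right of 0.

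Levels of different genes are set beside each other in FPKM, which divides by transcript length. In knockout glycine libraries the order was Plac8 at 299.6 ± 34.9 FPKM, Apobec1 at 159 ± 23.1, Hp at 103 ± 4.09, Ly6c2 at 101 ± 7.41, Chil3 at 85.1 ± 16.3 and Ifitm6 at 42.8 ± 6.30 FPKM (SD, n = 3). In knockout saline libraries Chil3 at 185 ± 103 FPKM and Apobec1 at 165 ± 23.4 FPKM were the highest of the 6. In wild-type saline libraries Hp at 27.4 ± 18.9 FPKM and Apobec1 at 21.6 ± 2.13 FPKM were the highest, and Ly6c2 at 3.27 ± 2.38 and Chil3 at 2.67 ± 1.61 FPKM the lowest. Hp and Ly6c2 in knockout glycine, Chil3 and Apobec1 in knockout saline, and Ly6c2 and Chil3 in wild-type saline did not differ beyond their spread.

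Lyz2, the lysozyme gene of monocytes, macrophages and neutrophils, gave a myeloid level against which to set the 6 genes. Lyz2 had 5784, 5685 and 6453 CPM in knockout glycine, 9749.8, 14680.4 and 10876 CPM in knockout saline, 5852, 5803 and 5439.7 CPM in wild-type glycine, and 2461, 3683 and 2956 CPM in wild-type saline libraries. The knockout glycine and wild-type glycine libraries overlapped in Lyz2, with a log2 difference of 0.07 ± 0.18. Lyz2 fell with glycine in knockout (-0.98 ± 0.18, adjusted p = 0.0146 by edgeR), and rose with glycine in wild type (0.91 ± 0.18, adjusted p = 0.02). The first call was lost without knockout saline 2, knockout glycine 4 or knockout glycine 5 (adjusted p up to 0.0937), and the second without wild-type saline 1 or 3 or wild-type glycine 5 or 6 (adjusted p up to 0.08). Lyz2 was also higher in knockout than in wild type under saline (1.96 ± 0.18, adjusted p = 1.15e-05).

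Per 100 Lyz2 counts of the same library, Ly6c2 gave 1.15 ± 0.0975 counts in knockout glycine, against 0.164 ± 0.0290 in knockout saline, 0.154 ± 0.0432 in wild-type glycine and 0.103 ± 0.0778 in wild-type saline libraries (SD, n = 3 each). Plac8 gave 3.18 ± 0.393, 0.495 ± 0.111, 0.641 ± 0.120 and 0.459 ± 0.143 counts per 100 Lyz2 counts in the same groups. Ifitm6 gave 0.408 ± 0.0617, 0.204 ± 0.0994, 0.217 ± 0.0110 and 0.189 ± 0.0454. For these 3 genes the knockout glycine libraries stood above all others and the other 3 groups overlapped, with the smallest gap for Ifitm6, where the lowest knockout glycine library was at 0.337 and knockout saline 2 at 0.314. Chil3 kept the genotype split, with 1.87 ± 0.359 counts per 100 Lyz2 counts in knockout glycine and 2.36 ± 0.713 in knockout saline, against 0.464 ± 0.0458 in wild-type glycine and 0.168 ± 0.0938 in wild-type saline libraries. Apobec1 did likewise, at 4.74 ± 0.665 and 3.11 ± 0.637 in the knockout groups, against 1.59 ± 0.108 and 1.85 ± 0.249 in wild-type glycine and wild-type saline. Hp at 0.858 ± 0.0293 was lower in knockout saline than in knockout glycine (1.98 ± 0.0920) or wild-type glycine (1.51 ± 0.115), and the scatter in wild-type saline, 0.475 to 2.79, covered all groups. Per 100 Ccr2 counts, the knockout glycine libraries again stood above all others for Ly6c2 and Plac8, but not for Ifitm6. Ifitm6 then gave 4.74 to 9.66 counts in knockout glycine, 2.17 to 8.18 in knockout saline and 3.51 to 5.15 in wild-type glycine libraries. The ratios to Lyz2 and to Ccr2 draw on the same measurements that picked the genes and carry no test.

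**Figure D3:**
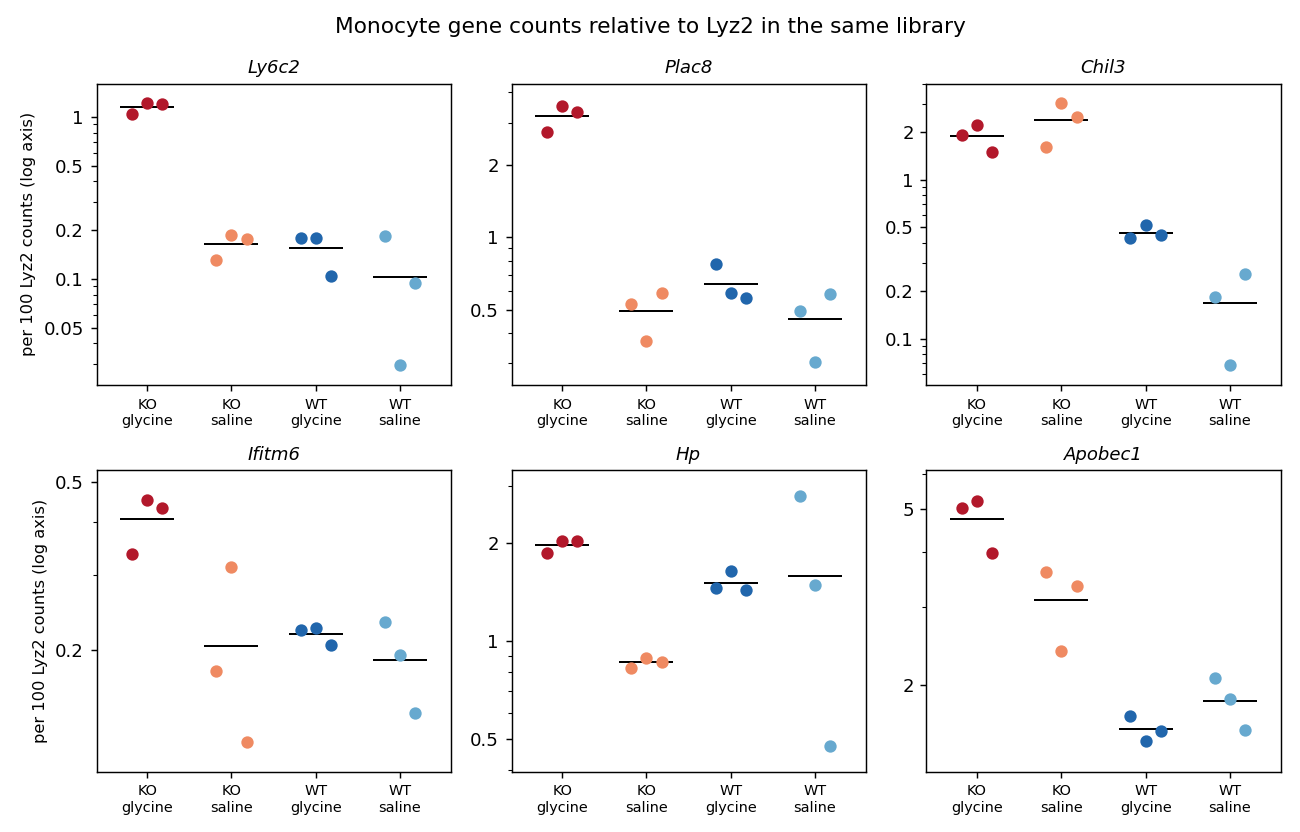
Counts of each of the 6 genes per 100 Lyz2 counts of the same library, on a log axis. Points are libraries and bars are group means; for Ly6c2, Plac8 and Ifitm6 only knockout glycine stands apart, with means of 1.15, 3.18 and 0.408, whereas for Chil3 both knockout groups lie above both wild-type groups.

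Other genes of classical monocytes, 26 in number and all of them tested, were read beside the 6 genes. This list and the other gene lists below were chosen with earlier results of these data known. Their counts and adjusted p-values are therefore a description, not an independent test. Knockout against wild type under saline, 20 of the 26 rose, against 6.03% of all genes, and 1 fell, against 5.26%; their median log2 difference was 1.93. Ms4a4c, a tetraspan membrane protein gene, was higher in knockout saline (208 ± 31.6 CPM) than in wild-type saline libraries (23.9 ± 2.66 CPM), a log2 difference of 3.12 ± 0.23 (adjusted p = 1.1e-06 by edgeR). Ccr2, the receptor for exit from the bone marrow, averaged 565 ± 40.3 CPM in knockout saline and 161 ± 49.6 CPM in wild-type saline libraries, a rise of 1.81 ± 0.22 (adjusted p = 0.00011). Sirpb1c, a paired-type receptor gene, rose by 3.95 ± 0.41 (adjusted p = 2.63e-05). The gene that fell was Vcan, for the matrix proteoglycan versican, which fibroblasts and smooth muscle also make (-1.05 ± 0.30, adjusted p = 0.0346); the call was lost without wild-type saline 1 or 3 and without any one of the knockout saline libraries. The count of higher genes ranged from 17 to 20 with any one library left out.

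Under glycine, 5 of the 26 were higher in knockout than in wild type, against 1.5% of all genes: Ms4a4c, Sirpb1c, Clec4e, Ifi27l2a and Ly6a, with a list median of 0.67. Without wild-type glycine 6 the count was 3. Glycine against saline in wild type called 8 of 26 higher, against 0.991% of all genes, with a median of 0.65; Ms4a4c (1.55 ± 0.22, adjusted p = 0.00383) and Clec4a1, a C-type lectin receptor gene (1.13 ± 0.19, adjusted p = 0.0095), were among them. Leaving out wild-type saline 1 or 3 brought that count to 3, leaving out wild-type glycine 5 or 6 brought it to 5, and a model of the wild-type groups alone gave 1, against 0.187% of all genes.

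With glycine in knockout the list had a median of -0.47, and 6 of its 26 genes had a fitted difference above 0. Lyz2 was the 1 gene called lower, against 0.201% of all genes; that call has the limits given above. Ms4a4c (0.99 ± 0.21, adjusted p = 0.0317) and Ly6a, a GPI-anchored neighbour of Ly6c2 that interferon is known to induce (1.27 ± 0.18, adjusted p = 0.00335), were the 2 genes called higher, against 0.927% of all genes. Leaving out any one of the 6 knockout libraries left 1 of these 2 calls, that of Ly6a, with an adjusted p of up to 0.173 for Ms4a4c. The glycine difference was lower in knockout than in wild type for 5 of the 26 genes by the interaction, against 0.84% of all genes, among them Lyz2 (-1.89 ± 0.25), F13a1 and Clec4a1; the count was 3 without knockout saline 3, knockout glycine 4 or knockout glycine 6. Of the 11 non-classical monocyte genes, 2 were called higher in knockout under saline, against 6.03% of all genes: the fractalkine receptor gene Cx3cr1 (1.92 ± 0.37, adjusted p = 0.0032) and Adgre4 (1.40 ± 0.42, adjusted p = 0.0414). The call of Adgre4 was lost without wild-type saline 1 or 3 or knockout saline 2 or 3, with an adjusted p of up to 0.193.

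**Figure D4:**
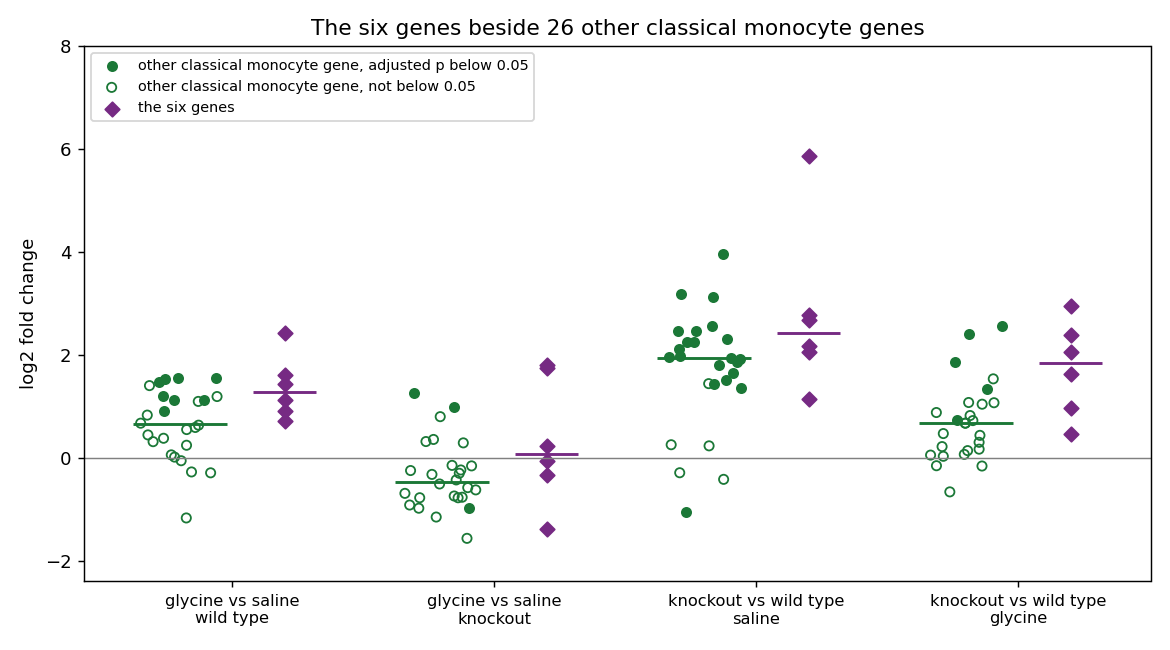
Fitted log2 fold change of the 26 other classical monocyte genes (green circles, filled where the adjusted p was below 0.05) and of the 6 genes (purple diamonds) in 4 comparisons; horizontal bars are medians. The medians of the 26 genes were 0.65, -0.47, 1.93 and 0.67 from left to right, beside 1.28, 0.08, 2.42 and 1.85 for the 6 genes.

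Genes that recruit monocytes were read on 20 tested ligands and receptors. With glycine in wild type, the chemokine genes Ccl2, whose product binds CCR2 (1.28 ± 0.24, adjusted p = 0.0166), and Ccl8 (2.03 ± 0.29, adjusted p = 0.00452) rose, as 2 of 20, against 0.991% of all genes. Ccl2 had 240.3, 131 and 152 CPM in wild-type glycine and 71.8, 84.1 and 59.8 CPM in wild-type saline libraries; its call was lost without wild-type saline 1 or 3 (adjusted p up to 0.0757). With glycine in knockout, Ccl7 (1.20 ± 0.24, adjusted p = 0.0252), Ccl12 (1.18 ± 0.26, adjusted p = 0.0393) and Cxcl12 (1.31 ± 0.22, adjusted p = 0.00824) rose, as 3 of 20, against 0.927% of all genes. The calls of Ccl7 and Ccl12 were lost without any one of the 3 knockout saline libraries or without knockout glycine 5 or 6 (adjusted p up to 0.126 and 0.194). In knockout under saline 7 of 20 were higher, against 6.03% of all genes. Of these 7, 6 were receptors or leukocyte adhesion genes, such as Ccr2 and Csf1r, the receptor for macrophage colony-stimulating factor (1.73 ± 0.23, adjusted p = 0.000164), and 1 was the ligand gene Ccl8.

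Relatives of the 6 genes were read from lists of their own. Of 8 tested Ly6 genes other than Ly6c2, Ly6e, Ly6i and Ly6k were higher in knockout under saline (against 6.03% of all genes), and Ly6a, Ly6e and Ly6k under glycine (against 1.5%). The call of Ly6i was lost without wild-type saline 1 or 2 or knockout saline 2 or 3 (adjusted p up to 0.0949). Ly6e, the most abundant of the named ones, differed by 0.85 ± 0.14 (adjusted p = 0.000719) and 0.98 ± 0.14 (adjusted p = 0.00125). Of 5 tested IFITM genes, Ifitm1 and Ifitm3, which restricts virus entry, were higher in knockout under glycine, against 1.5% of all genes. For Ifitm3 the difference was 0.81 ± 0.17 (adjusted p = 0.0163). Both IFITM calls were lost without wild-type glycine 6 or knockout glycine 6; that of Ifitm1 (adjusted p up to 0.0978) was also lost without knockout glycine 5, and that of Ifitm3 (up to 0.0909) without wild-type glycine 5. Apobec3, a deaminase that restricts retroviruses, went against Apobec1: it was lower in knockout, by -1.07 ± 0.29 under saline (adjusted p = 0.0251) and -1.94 ± 0.29 under glycine (adjusted p = 0.0022; 1.06% of all genes were called lower there). The call under saline was lost without wild-type saline 3, knockout saline 2 or knockout saline 3, with an adjusted p of up to 0.12. Rbm47, an RNA-binding cofactor of APOBEC1, was higher in knockout under saline (1.11 ± 0.25, adjusted p = 0.00847). Of 8 haem- and iron-handling genes, 4 were higher in knockout under saline, against 6.03% of all genes, and these calls held with each of the libraries compared left out: the haem oxygenase gene Hmox1 (1.77 ± 0.27, adjusted p = 0.000619), Cd163, the receptor for haptoglobin bound to haemoglobin (1.21 ± 0.19, adjusted p = 0.000756), and the ferritin genes Ftl1 (1.21 ± 0.14) and Fth1 (0.72 ± 0.14). Hmox1 fell with glycine in knockout (-1.29 ± 0.27, adjusted p = 0.0309), and Cd163 rose with glycine in wild type (0.90 ± 0.19, adjusted p = 0.0317). Each of these glycine calls was lost with any one of the libraries compared left out, with an adjusted p of up to 0.153 for Hmox1 and 0.0929 for Cd163. No chitinase-like gene other than Chil3 passed the filter on low counts.

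Several other cell types also express some of the 6 genes, and the markers of those types are given here for all groups. Neutrophils express Hp, Chil3 and Lyz2. The 17 neutrophil markers summed to 640 to 663 CPM in knockout glycine, 876 to 1263 in knockout saline, 320 to 471 in wild-type glycine and 163 to 429 CPM in wild-type saline libraries. Of these, 11 of 17 were higher in knockout under saline, against 6.03% of all genes, such as Cxcr2 (2.20 ± 0.38, adjusted p = 0.00137). Resident macrophage markers, 14 in number, summed to 3843 to 4576 CPM in knockout glycine, 5165 to 5495 in knockout saline, 3635 to 4234 in wild-type glycine and 1712 to 2669 CPM in wild-type saline libraries. Of these 14, 9 rose with glycine in wild type, against 0.991% of all genes, a count of 1 or 2 without any 1 of 4 libraries (wild-type saline 1 or 3, wild-type glycine 5 or 6). In knockout under saline 10 were higher, against 6.03% of all genes. T and NK cell markers, among which activated T cells can carry Ly6C, summed to 215 to 238 CPM in knockout glycine, against 42.1 to 79.6, 47.9 to 104.6 and 35.8 to 77.3 CPM in knockout saline, wild-type glycine and wild-type saline libraries. Trbc2, a T cell receptor constant gene, was higher with glycine in knockout (3.98 ± 0.39, adjusted p = 0.000358), and its glycine difference was higher in knockout than in wild type by 2.74 ± 0.51 (0.273% of all genes were called higher by the interaction). That interaction call was lost without wild-type glycine 5, knockout saline 2 or 3, or knockout glycine 5 or 6 (adjusted p up to 0.0734).

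Genes of the interferon response, which is known to induce several Ly6 and IFITM genes, were highest in the same group as Ly6c2 and Plac8. The 16 genes summed to 2633 to 3035 CPM in knockout glycine, 1316 to 1525 in knockout saline, 1059 to 1235 in wild-type glycine and 1147 to 1288 CPM in wild-type saline libraries. With glycine in knockout 9 of 16 rose, against 0.927% of all genes. Under glycine, 14 of 16 were higher in knockout than in wild type, against 1.5%. Ifit3, an interferon-induced antiviral gene, averaged 234 ± 9.39 CPM in knockout glycine and 59.8 ± 7.80 CPM in knockout saline libraries (1.97 ± 0.21, adjusted p = 0.000795). Alveolar macrophage and eosinophil markers (Chil3 is abundant in alveolar macrophages) summed to at most 62.0 CPM in any library, with Ear1, Ear6 and Epx at 0 counts in all 12, and hepatocyte markers to at most 27.0 CPM, with Serpina1a at 0. Adipocytes, a further source of Hp, had markers summing to 341 to 375 CPM in knockout glycine, 225 to 338 in knockout saline, 621 to 756 in wild-type glycine and 484 to 610 CPM in wild-type saline libraries. Plasmacytoid dendritic cell markers (such cells express Ly6c2 and Plac8) summed to 333 to 387, 192 to 258, 206 to 322 and 338 to 385 CPM in the same order of groups. B cell markers summed to 118 to 177, 73.7 to 154, 69.9 to 194 and 58.0 to 133 CPM in that order. With glycine in knockout, 7 of the 8 plasmacytoid dendritic cell markers had a fitted difference above 0, with a median of 1.01. Cox6a2 alone was called higher (2.23 ± 0.45, adjusted p = 0.0262 by edgeR), against 0.927% of all genes. That call was lost with 5 of the 6 libraries left out (adjusted p up to 0.139). Knockout against wild type under saline, 2 of the 8 were above 0 and Tcf4 was called lower, against 5.26% of all genes. The part of each of these cell types and of the interferon response in the levels of the 6 genes was not tested.

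**Figure D5:**
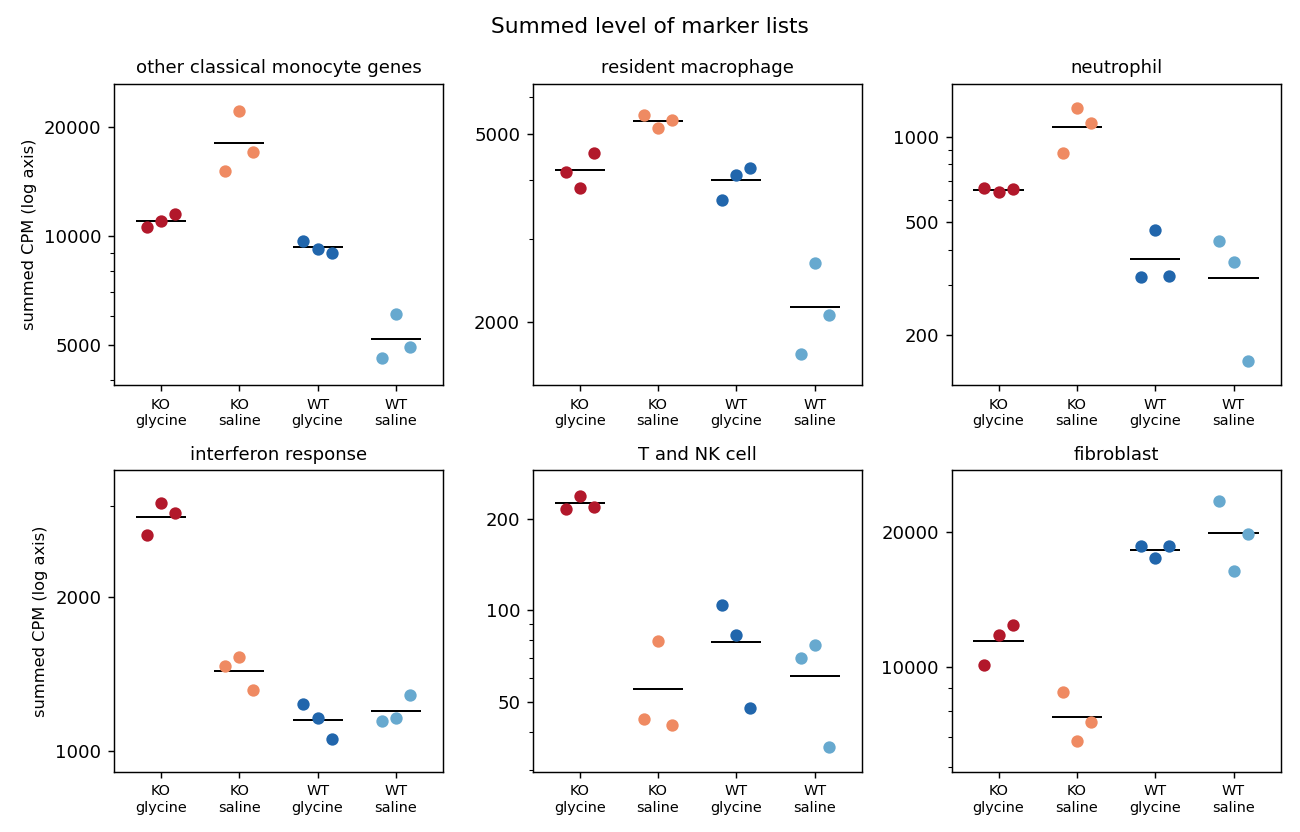
Summed CPM of 6 marker lists per library on a log axis; points are libraries and bars group means. The summed level is highest in knockout glycine for interferon response (2633 to 3035 CPM) and T and NK cell genes (215 to 238 CPM). It is highest in knockout saline for monocyte, macrophage and neutrophil genes, and in both wild-type groups for fibroblast genes. Lyz2 alone averaged 11769 of the 18068 CPM of the monocyte sum in knockout saline, and 5974 of 11016 CPM in knockout glycine. Of the same list, Ms4a4c and Ly6a were called higher with glycine in knockout and Lyz2 lower.

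Across the 12 libraries the log2 CPM values of the 6 genes correlated with each other at Pearson's r of 0.63 to 0.96, highest for Ly6c2 and Plac8. After each group's mean was removed, r ran from -0.54 to 0.69. The points share genotype, treatment and cell make-up of the library, so r is a description. Among 9203 genes with a mean of at least 5 CPM, the 10 whose profile was most like the mean of the 6 genes included Saa3 (r = 0.97), Limd2, Slfn1, Samhd1, Anxa2r1, Rac2, Gpr35, Ms4a4c and Oas1a (r = 0.96). Taken singly, Ly6c2 was most like Igkc, Slfn1 and Oas1a (r = 0.95 each), and Plac8 was most like Oas1a (r = 0.98), Igkc and Ly6e. Chil3 was most like Lair1 (r = 0.98), Plin2 and Tlr2, and Apobec1 was most like Ctss (r = 0.99), Plbd1 and Ms4a6c. Ifitm6 was most like Saa3 (r = 0.96), Cd14 and Slpi, and Hp was most like Ticam2 (r = 0.95), Il21r and Napsa.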

How the data were processed

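The labels describe aortic endothelial cells, mRNA captured on beads, and sequencing on an Illumina NovaSeq. The tools named, per the submitters' processing notes, were RSEM, Bowtie2 2.2.8, HISAT2 2.1.0 and StringTie 1.3.1. The sources used here give no build or annotation. The authors deposited 1 table of estimated counts (expected counts, 10.4% of them not whole) and FPKM values for 12 libraries. Coordinates come from RefSeq windows of GRCm38.p6, matched by symbol.

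Estimated counts were rounded, 112 entries without a symbol (at most 0.0124% of a library's counts) were left out, and filterByExpr kept 13922 genes. These were tested with edgeR 4.0.16 (R 4.3.3; TMM, robust quasi-likelihood fit, 1 model of 4 groups), with Benjamini-Hochberg adjustment over all 13922 genes and a threshold of 0.05. The SE is the log2 fold change divided by the square root of F. Correlations used log2 CPM with a prior count of 2. Nothing in the labels ties each library to its own animal, so p-values measure the spread between libraries, which may be technical.

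The 6 genes and 20 gene lists were chosen with earlier results of these data known. Up to 4 genes a list and comparison, those with the smallest adjusted p, could be named, and Ly6c1, Ifitm3, Ccr2, Ccl2, Lyz2 and Glra2 always; the text prints examples of them. Vcan and the genes at 0 counts were named after their values were seen. Alternatives were DESeq2 1.42.0, size factors, no filter, FPKM with limma 3.58.1 (pseudocounts 1 and 0.1), only the compared groups, a replicate block, left-out mitochondrial and haemoglobin genes, and each library left out in turn. Counts over the 6 genes and 5 lists were added to these after the data were seen.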

Additional observations from a re-analysis of the deposited data

Results flagged for a closer look

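The difference between the glycine effects in knockout and in wild type was tested by the interaction term of the edgeR fit. It was past an adjusted p of 0.05 for 2 of the 6 genes and for 20 of the genes named from the lists. Of all tested genes, 0.84% were called lower and 0.273% higher by it. The named genes were taken by smallest adjusted p from lists chosen with earlier results known, so their number is a description. Of the 6 genes, Chil3 differed by -3.81 and Apobec1 by -1.05 on the log2 scale, both with a lower glycine effect in knockout; the call of Chil3 held with each of the 12 libraries left out, and that of Apobec1 was lost with 9 of them, all but wild-type saline 2, wild-type glycine 4 and knockout saline 1. As both were picked on these libraries, the values are a description.

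In the classical monocyte list the glycine effect was lower in knockout for Lyz2 (-1.89), F13a1, a coagulation factor XIII subunit (-1.80), Clec4a1 (-1.43) and the chemokine gene Ccl9 (-2.29). In the monocyte recruitment list it was lower for Csf1r (-1.76) and the selectin ligand gene Selplg (-1.21). Among macrophage genes it was lower for the mannose receptor gene Mrc1 (-1.84), Cd163 (-1.23), the complement genes C1qa (-1.56) and C1qb (-1.29), Cd68 (-1.33) and Pf4 (-1.43). Of the haem- and iron-handling genes it was lower for Hmox1 (-2.35) and the ferritin gene Ftl1 (-1.20). It was higher in knockout for the T cell gene Trbc2 (2.74), for the interferon-induced genes Ifit1 (1.78), Ifit3 (1.89), Igtp (1.44) and Gbp2 (1.36), and for the fibroblast gene Ccdc80 (1.49). Among these 20 genes the calls of Lyz2, F13a1, Ccl9, Mrc1, C1qa, Cd68, Hmox1, Ftl1 and Ifit3 held with each of the 12 libraries left out. Those of Csf1r, Pf4, Ifit1, Igtp, Clec4a1, Trbc2, Gbp2, Ccdc80, Selplg, Cd163 and C1qb were lost with at least 1 library left out, for C1qb and Cd163 with 10 of the 12.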

How the results depend on the processing

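Ly6c2 and Plac8 kept the sign of their 4 pairwise differences under every alternative, as did Chil3, Hp and Apobec1; Ifitm6 changed sign for glycine in knockout under 5 of 14. The call of Ly6c2 for glycine in knockout was lost with each of 6 libraries left out, and that of Apobec1 for glycine in wild type with 5 of 6.

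For all genes, glycine in wild type called 193 (138 higher, 55 lower), but 528 with DESeq2, 42 with only the compared groups, 966 (917 and 49) with FPKM at pseudocount 1, 956 (918 and 38) at 0.1 and 812 (773 and 39) unfiltered, and 73 to 258 with a library left out. Glycine in knockout called 157 (129 and 28), but 500 (345 and 155), 340, 652 (623 and 29), 553 (532 and 21) and 522 (505 and 17) under the same settings, and 57 to 123 with a library left out. Knockout under saline called 1572 (840 and 732), with 1136 and 334 on FPKM at pseudocount 1, and 1018 (without knockout saline 2) to 1495 with a library left out. Knockout under glycine called 357 (209 and 148), 796 with DESeq2, 562 (453 and 109) on FPKM at pseudocount 1, and 136 to 395. The interaction called 155 (38 and 117), 507 (188 and 319) with DESeq2, 249 (97 and 152) on FPKM at pseudocount 1, and 58 to 339. On FPKM at pseudocount 1 the median of all genes lay at 0.31 for glycine in wild type, 0.19 for glycine in knockout and 0.15 for knockout under saline, so more genes counted as higher there. The cause of these shifted medians was not tested. All 6 genes were called for glycine in wild type on FPKM at pseudocount 1, where 917 of all genes were called higher. On estimated counts 3 of the 6 were called, where 138 of all genes (0.991%) were called higher. As the 6 genes were picked on these libraries, nothing is read from these counts.

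Replicate numbers did not pair the libraries: deviations of same-numbered libraries correlated at -0.03 to 0.02. With the number as a replicate block, knockout under saline called 1266 genes, knockout under glycine 219 and the interaction 38. Of the 6 genes the interaction then called 1 in place of 2, against 38 in place of 155 of all 13922 tested genes. Because the 6 genes were picked on these libraries, nothing is read from that count. Glycine and saline libraries share no numbers, so those comparisons have no block.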
